A study of Mus musculus with 6 samples.

Results

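The LGI proteins and their ADAM receptors form a small ligand and receptor system of the nervous system, and their transcripts were followed here in cultured neural stem cells (NSCs) that lacked miR-151 and in control NSCs. The 7 genes comprised the 4 ligand genes *Lgi1*, *Lgi2*, *Lgi3* and *Lgi4* and the 3 receptor genes *Adam11*, *Adam22* and *Adam23*. They were chosen by family membership, with the cko and ctrl values of these same libraries known, so their differences between genotypes are given as a description, and where a threshold is named for them it only places them among all genes. All 7 were found among the 32493 genes of the count table. The cko cells came from E14.5 mouse embryos carrying miR-151 flanked by loxP sites (miR-151 fl/fl) together with Emx1-IRES-Cre, and the ctrl cells, labelled wt, came from fl/fl embryos without Cre. Both groups had a C57BL/6J background, were dissected from around the lateral ventricles and were grown for 3 generations in culture before RNA sequencing. The Emx1 driver is active in the dorsal telencephalon, so cells of other origin in a culture would keep the miRNA. The study describes the cko and ctrl embryos as littermates, but which embryo or litter gave each library is not stated, so the tests below measure the spread between these libraries, which may be technical.

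LGI proteins are secreted and are built from leucine-rich repeats followed by EPTP repeats, which fold into a propeller that binds the receptor. The receptors ADAM11, ADAM22 and ADAM23 belong to the family of membrane metalloproteases, but their metalloprotease domain lacks the residues needed for catalysis, so they act as binding proteins rather than as sheddases. LGI1 links ADAM22 and ADAM23 across the synapse, where ADAM22 is held by the scaffold PSD-95, and loss of LGI1 causes epilepsy. LGI3 is secreted largely by oligodendrocytes and joins potassium channel complexes along axons, whereas LGI4 acts through ADAM22 in the myelination of peripheral nerves by Schwann cells.

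The comparison used 3 cko libraries and 2 ctrl libraries with 17883796 to 23335736 assigned counts each. The column of ctrl 2 equalled the mean of ctrl 1 and ctrl 3, rounded up, in all 32493 genes, so it was not counted as a replicate. No row of the table carried miR-151, so the deleted locus did not check the labels. Values are normalized CPM, the counts scaled to a common library size with TMM factors, in the order ctrl 1 and 3, then cko 1, 2 and 3, and errors are SD unless named as SE. A level of 3 counts, taken here as the floor, corresponded to between 0.128 and 0.168 CPM. In RNA from whole cultures, fewer cells of a type and less RNA per cell cannot be told apart. NSC markers were present in every library, with a summed level of 7424 to 8432 CPM in ctrl and 8783 to 9451 CPM in cko. In ctrl most of this sum was *Vim* (3097 and 1993 CPM), *Fabp7* (1947 and 1846) and *Slc1a3* (1664 and 1896). The lowest was *Prom1*, at 21.11 and 20.09 CPM in ctrl. At an adjusted p under 0.05 in the edgeR test, 4 of the 10 markers rose and 1 fell, *Slc1a3*, against 7.86% and 8.57% of all genes tested.

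In GRCm38 with the GENCODE release 21 annotation, the 7 genes lay at 7 separate places. *Lgi1* spans chr19:38264536-38312214 on the plus strand, *Lgi2* chr5:52533517-52566462 on the minus strand, *Lgi3* chr14:70530685-70538324 on the plus strand and *Lgi4* chr7:31059342-31070935 on the plus strand. *Adam11* spans chr11:102761439-102780262 on the plus strand, *Adam22* chr5:8072352-8368160 on the minus strand and *Adam23* chr1:63445891-63596276 on the plus strand. RefSeq promoter windows of GRCm38.p6, which run from 250 bases before to 50 bases after the start, were matched for 4 of the 7 genes, namely *Lgi1*, *Lgi2*, *Adam22* and *Adam23*. Those of *Adam22* (chr5:8368111-8368410, minus strand) and *Adam23* (chr1:63445641-63445940, plus strand) are shown. Among the pairs of the 6 genes tested, these receptor genes had the smallest difference in centred log2 CPM over the 5 libraries, as described below. *Lgi3* and *Adam11*, the next closest pair, had no matched window. Each CG dinucleotide is in capitals, and the gene's strand is read from 5′ to 3′.
Adam22: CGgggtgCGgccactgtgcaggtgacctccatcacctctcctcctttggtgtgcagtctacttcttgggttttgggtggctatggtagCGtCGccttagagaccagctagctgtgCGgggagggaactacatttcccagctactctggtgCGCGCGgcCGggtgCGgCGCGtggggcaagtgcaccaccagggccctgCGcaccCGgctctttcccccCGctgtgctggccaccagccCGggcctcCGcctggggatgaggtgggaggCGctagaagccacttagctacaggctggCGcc
Adam23: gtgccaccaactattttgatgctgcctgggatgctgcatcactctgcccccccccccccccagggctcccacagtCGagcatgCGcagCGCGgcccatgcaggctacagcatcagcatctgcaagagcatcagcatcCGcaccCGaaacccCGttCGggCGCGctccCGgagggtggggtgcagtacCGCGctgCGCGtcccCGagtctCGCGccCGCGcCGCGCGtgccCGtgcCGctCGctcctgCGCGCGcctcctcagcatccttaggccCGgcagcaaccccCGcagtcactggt
The *Adam22* window held 19 CG dinucleotides at a GC content of 66.33% and the *Adam23* window 31 at 70%, against a median of 7 CG over the 32851 windows of the table. Fewer CG were found in 71.93% of all windows than in that of *Adam22* and in 89.44% than in that of *Adam23*. Neither window held GGGCGG on either strand, which 35.66% of all windows did, and neither held TATAAA, which 13.62% did. The *Lgi2* window resembled them in composition, with 27 CG and 73.33% GC, and held GGGCGG 2 times over both strands. The *Lgi1* window had 13 CG and 54% GC and held GGGCGG 3 times. These counts of letters describe the windows and were not related to the expression values.

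The first question was how the ligand and receptor genes differed between cko and ctrl NSCs. *Lgi3* and *Adam11* were lower in cko, 3.17-fold and 2.47-fold, while *Adam22* and *Adam23* were slightly higher, 1.20-fold and 1.30-fold. *Lgi2* and *Lgi4* varied within the ctrl group by more than between genotypes, and *Lgi1* was at the limit of counting. With the edgeR quasi-likelihood test over 16710 genes, 2 of the 6 members that passed the filter on low counts were lower at a Benjamini-Hochberg adjusted p under 0.05, where 8.57% of all genes tested were lower. None of the 6 was higher at that threshold, against 7.86% of all genes. DESeq2 also called 0 higher, against 1581 of the 16710 genes. In the edgeR test 1 of the 6 was higher at an unadjusted p under 0.05, where the share of all genes was not counted. At the study's own threshold, a log2 fold change beyond 0.9 with an unadjusted p under 0.01, the same 2 were lower, against 4.17% of all genes, and 0 were higher, against 2.39%. The genotypes did not overlap in 4 of the 6, with 2 lower in cko (24.2% of all genes tested) and 2 higher (25.4%). Because the members were picked with these differences known, nothing is read from these counts.

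*Lgi3*, whose product is a ligand released by oligodendrocytes, was the ligand gene with the highest level, in CPM and per length. It measured 53.18 and 48.55 CPM in ctrl against 15.43, 16.53 and 16.20 CPM in cko, or 50.9 ± 3.27 (n = 2) against 16.1 ± 0.567 (n = 3). Each ctrl library was far above each cko library, and both groups were tight. The log2 fold change was -1.66 (SE 0.09), and 1.87% of the genes tested had a lower one. Leaving out any library, changing the normalization or using DESeq2 kept it between -1.72 and -1.60. These values rest on 911 and 1219 counts in ctrl and on 276 to 386 counts in cko.

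*Lgi4*, the ligand of peripheral glia, was scarce and uneven. It measured 2.44 and 0.480 CPM in ctrl and 0.894, 0.257 and 0.275 CPM in cko, from 56 and 9 counts in ctrl and 16, 6 and 6 in cko. The ctrl libraries differed 5.09-fold between themselves, the groups overlapped, and ctrl 1 was the highest of the 5. The log2 fold change was -1.69 (SE 0.77). It was -0.08 without ctrl 1, -2.41 without ctrl 3 and -2.46 without cko 1, so its size depended on which of these libraries was present. Among 6 astrocyte markers some were uneven between the ctrl libraries too and others were not, such as *Gfap* at 1007 and 177.5 CPM against *S100b* at 19.19 and 19.72 CPM and *Slc1a2* at 630.1 and 645.1 CPM. The part of these cells in the *Lgi4* values was not tested. Exons of *Lgi4* share 2059 of their 4584 bases with *Fxyd3* on the other strand, and *Fxyd3* had 0 counts in all 5 libraries, a count that allows up to 3 in each. The strand setting of the counting is not given, so how reads in the shared bases were assigned is not known. This also limits the level of *Lgi4* per length.

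*Lgi2*, a ligand gene mutated in a benign epilepsy of dogs, was low in both groups. It measured 2.23 and 6.40 CPM in ctrl and 3.63, 5.61 and 5.05 CPM in cko. The 3 cko libraries lay between the 2 ctrl libraries, which differed 2.87-fold from each other. A log2 fold change of 0.16 (SE 0.43) resulted. Its sign depended on the control, with a log2 difference of the cko mean of 1.10 from ctrl 1 and -0.42 from ctrl 3.

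*Lgi1*, the synaptic ligand whose loss causes epilepsy, was close to absent. It had 4 and 3 counts in ctrl and 1 count in each cko library, and it did not pass the filter. Summed over libraries, 7 of 41724421 counts in ctrl stood against 3 of 62955801 in cko, a ratio of cko to ctrl of 0.284 (95% interval 0.0474 to 1.244, exact, for counting error only). The interval includes equality, so a difference was not detectable at this depth.

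**Figure D1:**
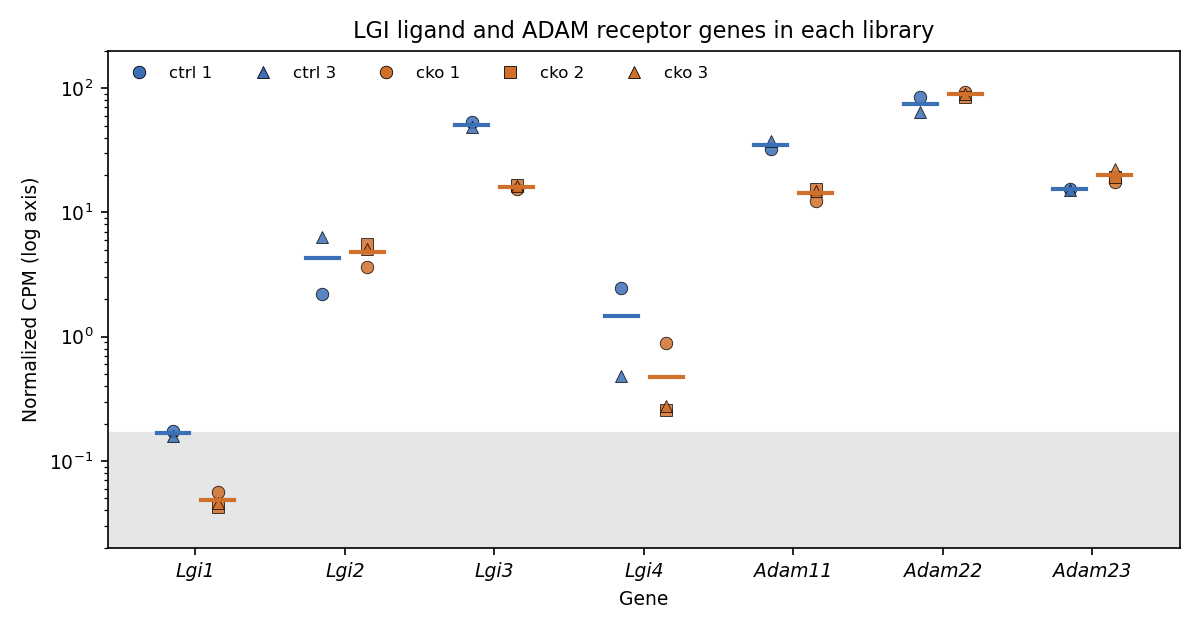
Normalized CPM on a log axis of each ligand and receptor gene in every library, with ctrl and cko as separate columns of points and bars at the group means; the grey band reaches up to the highest level that 3 counts give. *Lgi3* and *Adam11* separate downward in cko, *Adam22* and *Adam23* separate slightly upward, *Lgi2* and *Lgi4* overlap, and *Lgi1* lies at the band.

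Among the receptors, *Adam11* was the one that was lower in cko. ADAM11 is a neuronal receptor known from the terminals of cerebellar basket cells, where it places potassium channels. *Adam11* measured 32.63 and 37.73 CPM in ctrl against 12.46, 15.42 and 14.83 CPM in cko, or 35.2 ± 3.60 (n = 2) against 14.2 ± 1.56 (n = 3). No cko library came near a ctrl library. Its log2 fold change was -1.30 (SE 0.13), lower than that of all but 3.48% of the genes tested, and it ranged from -1.41 to -1.19 over the 11 alternative settings.

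*Adam22*, the receptor shared by LGI1 at synapses and LGI4 in nerves, had the highest CPM of the 7. Its values were 84.63 and 64.05 CPM in ctrl and 92.62, 85.30 and 89.70 CPM in cko. All cko libraries were higher than both ctrl libraries, although cko 2 exceeded ctrl 1 only narrowly. The log2 fold change was 0.26 (SE 0.12). Its size rested on the ctrl libraries, at 0.47 without ctrl 1 and 0.08 without ctrl 3.

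*Adam23*, the axonal partner in the LGI1 bridge, measured 15.36 and 15.29 CPM in ctrl and 17.66, 19.36 and 22.54 CPM in cko. The ctrl libraries were nearly equal and all 3 cko libraries were higher. Its log2 fold change was 0.37 (SE 0.14), and it ranged from 0.26 to 0.44 over the alternatives.

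**Figure D2:**
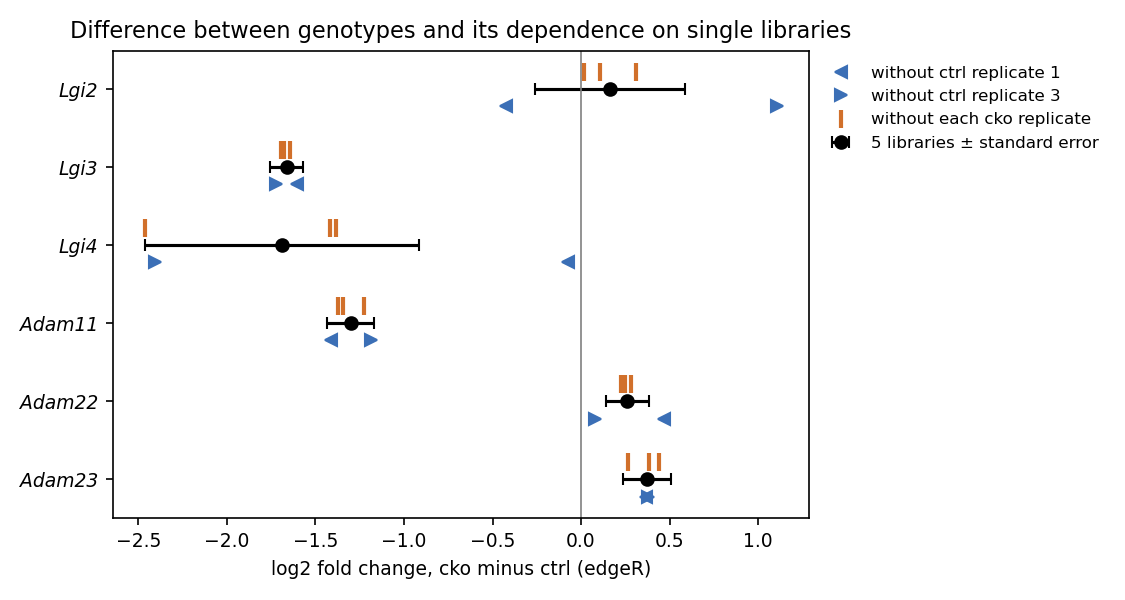
Log2 fold change of cko over ctrl for the 6 tested ligand and receptor genes, with bars of 1 SE, beside the values obtained when each ctrl or cko library was left out in turn. *Lgi3* and *Adam11* stay well under 0 in every case, whereas *Lgi4* moves between -2.46 and -0.08 and *Lgi2* between -0.42 and 1.11.

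Because longer transcripts collect more reads, levels of different genes were compared as RPKM, the normalized CPM divided by the length in kilobases of all annotated exons of a gene. In ctrl, *Lgi3* was highest at 13.0 ± 0.840 RPKM, followed by *Adam11* at 6.21 RPKM and *Adam22* at 5.18 RPKM, whose libraries overlapped. *Adam23* at 0.856 RPKM and *Lgi2* at 0.660 RPKM came next and overlapped too, as did *Lgi2* and *Lgi4*, and *Lgi1* was last at 0.0147 RPKM. In cko the order changed at the top. *Adam22* at 6.22 RPKM was above *Lgi3* at 4.12 ± 0.145 RPKM and *Adam11* at 2.51 RPKM, then came *Adam23* at 1.11 RPKM and *Lgi2* at 0.730 RPKM, with no overlap between these neighbours. This order depended on the length used. With the length of the longest coding transcript in place of all exons, *Adam22* stood above *Adam11* in ctrl as well, at 8.04 against 6.90 RPKM, and their libraries still overlapped. *Adam23* moved most, to 2.39 RPKM in ctrl, where it no longer overlapped *Lgi2*, and to 3.09 RPKM in cko, where it stood above *Adam11* at 2.79 RPKM with overlapping libraries.

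The composition of each family shifted accordingly. The summed ligand level was 14.53 and 13.55 RPKM in ctrl and 4.71, 5.16 and 4.99 RPKM in cko, which is 2.83-fold lower, and *Lgi3* supplied a mean of 92.9% of it in ctrl and 83.1% in cko. The share of *Lgi2* was 4.79% in ctrl and 14.6% in cko, at RPKM levels that overlapped. The summed receptor level was only 1.25-fold lower, at 12.51 and 11.97 RPKM in ctrl and 9.64, 9.75 and 10.13 RPKM in cko. Within it *Adam11* went from 50.8% to 25.5%, *Adam22* from 42.2% to 63.2% and *Adam23* from 6.99% to 11.2%. With coding transcript length the sums were 2.89-fold lower for the ligands and 1.11-fold lower for the receptors, and the receptor shares went from 39.96% to 17.97% for *Adam11*, from 46.2% to 62.2% for *Adam22* and from 13.8% to 19.9% for *Adam23*. These are levels of RNA, and protein was not analysed here.

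**Figure D3:**
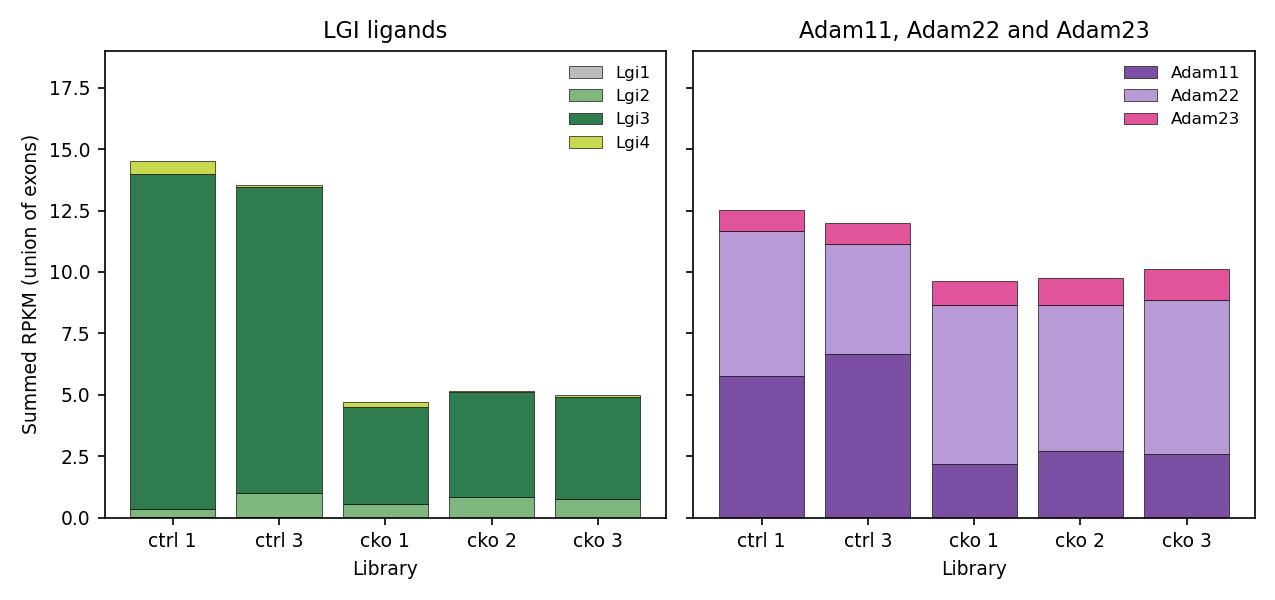
Stacked RPKM (normalized CPM per kilobase of exon) of the ligand genes, left, and the receptor genes, right, in each ctrl and cko library. *Lgi3* fills most of each ligand bar and the cko bars are 2.83-fold lower on average than the ctrl bars. The receptor bars shrink less, and *Adam11* fills a smaller part of each cko bar and *Adam22* a larger part than in either ctrl bar.

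Cell types known to make or receive these proteins were read from their markers in the same libraries. Of 11 markers of the oligodendrocyte lineage, 6 fell and 2 rose, with a median log2 fold change of -0.78 against -0.003 over all genes tested. Of all genes tested, 8.57% fell and 7.86% rose, counted at an adjusted p under 0.05 in the edgeR test. The log2 fold changes of the falling markers ran from -0.78 for *Cnp* to -6.38 for *Mag*, which had at most 2 counts in cko. They included the myelin gene *Mbp*, at 138.9 and 237.8 CPM in ctrl and 9.29 to 11.75 CPM in cko. The rising markers were *Olig1*, at 1095 and 1350 CPM in ctrl and 1807 to 1992 CPM in cko, and *Olig2*, at 538.4 and 648.5 against 740.5 to 818.6 CPM. Those not called were *Pdgfra* (log2 fold change 0.45), *Cspg4* (0.24) and the myelin gene *Mog* (-0.05). DESeq2 called 6 lower and 3 higher, and an unadjusted p under 0.05 in the edgeR test gave the same counts. The summed level of the list, in which *Olig1* was the largest term, did not separate the groups. It was 3217 to 3838 CPM in ctrl and 3509 to 3761 CPM in cko, and it mixes markers that moved in opposite directions. Of 6 astrocyte markers 3 fell and 0 rose, with sums of 1338 to 2440 CPM in ctrl and 607.1 to 1135 CPM in cko. At an unadjusted p under 0.05 in the edgeR test, 5 astrocyte markers were lower and 0 higher, and DESeq2 called 3 lower and 0 higher. Over all 16710 genes tested, DESeq2 called 1703 lower and 1581 higher, and the share at the unadjusted threshold was not counted. The part of these shifts in the lower *Lgi3* and *Adam11* was not tested.

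Neuronal markers, which would accompany the synaptic partners, summed to 1131 to 1260 CPM in ctrl and 1272 to 1304 CPM in cko. Most of this sum was *Map2*, at 1031 and 958.3 CPM in ctrl and 1083 to 1123 CPM in cko. Of the 7 tested 2 rose, *Syt1* (log2 fold change 1.57) and *Elavl4* (1.30), and 1 fell, *Dcx* (-1.51). For this and the next lists, 7.86% of all genes tested rose and 8.57% fell at the same threshold. The 6 Schwann cell markers, relevant to *Lgi4*, summed to only 10.39 to 13.13 CPM in ctrl and 4.19 to 6.34 CPM in cko, 1 of the 3 tested fell, and *Pmp2* and *Foxd3* had at most 3 counts in any library. Of the 3 interneuron markers 1 rose, *Gad1* (log2 fold change 0.69), and 0 fell, while *Dlx2* was at -1.18 (edgeR adjusted p = 0.083). Endothelial markers summed to 4.01 to 4.64 CPM in ctrl and 4.97 to 6.70 CPM in cko with *Cdh5* at 0, and mural and fibroblast markers to 3.36 to 3.997 and 1.34 to 2.07 CPM. Microglial and choroid plexus markers stayed at 1.55 CPM or less in sum. Of these, *Cx3cr1* (at 0), *Csf1r*, *Aif1* and *Folr1* were at or below 3 counts everywhere. Others were above it in some libraries, such as *P2ry12* with 10 counts in ctrl 1 and *Ttr* with 23 in ctrl 3.

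To place the profiles, the protein-coding genes nearest to each member over the 5 libraries were taken by the root mean square difference of centred log2 CPM, with no test. Nearest to *Lgi3* were *Sema4a* (0.079), a membrane semaphorin, *Shisal1* (0.109) and *Tubb4a* (0.124), a tubulin enriched in oligodendrocytes. Nearest to *Adam11* were *Creb3l2* (0.067), *Rhbdl2* (0.076) and *Naprt* (0.078), nearest to *Adam22* were *Rabl2* (0.019), *Zfp65* (0.021) and *Nrep* (0.027), and nearest to *Adam23* were *Wrap53* (0.026), *Pik3c2b* (0.039) and *Fam76b* (0.040). For the uneven genes the nearest were *Ccdc80* (0.055), *Plvap* (0.070) and *Bmp7* (0.072) for *Lgi2* and *Slc14a1* (0.132), *Usp35* (0.164) and *S1pr3* (0.175) for *Lgi4*. Between the members themselves, *Adam22* and *Adam23* differed by 0.181 and *Lgi3* and *Adam11* by 0.215, whereas *Lgi3* and *Adam22* differed by 0.941. This measure is also small between genes that vary little. The ctrl libraries were apart for *Adam22* (84.63 and 64.05 CPM) but not for *Adam23* (15.36 and 15.29 CPM). Over 5 libraries with 2 genotypes many genes share a profile, and 12497 genes were compared.

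The proteins that LGI and ADAM22 family members bind form the surroundings in which these receptors act, and their genes were counted from lists. Here "rose" and "fell" stand for an adjusted p under 0.05 in the edgeR test over all genes, where 7.86% of all genes tested rose and 8.57% fell. DESeq2 called 1581 of the 16710 genes higher and 1703 lower. The share of all genes at an unadjusted p under 0.05 was not counted. Of 12 tested genes for synaptic partners, 3 rose and 0 fell, with 1 lower at an unadjusted p under 0.05 and 0 by DESeq2, and the median log2 fold change was -0.08. *Cacng4*, which encodes an auxiliary subunit (TARP) of AMPA receptors, rose from 80.62 and 95.28 CPM in ctrl to 154.3, 181.2 and 174.6 CPM in cko, a log2 fold change of 0.95 (SE 0.11, adjusted p = 0.0026). *Gria4*, an AMPA receptor subunit, rose from 61.82 and 48.17 to 78.59, 71.90 and 77.26 CPM (0.46, SE 0.12, adjusted p = 0.035). *Dlg3*, a scaffold related to PSD-95, rose from 41.84 and 42.63 to 50.19, 51.82 and 55.78 CPM (0.32, SE 0.08, adjusted p = 0.042). *Dlg4*, which encodes PSD-95 itself, overlapped between the groups at 133.2 and 179.5 CPM in ctrl and 117.0 to 136.5 CPM in cko. *Gria2*, the AMPA receptor subunit that had the highest CPM of the list, was at 801.8 and 705.7 CPM in ctrl and 754.8 to 837.7 CPM in cko, a log2 difference of 0.08 (adjusted p = 0.58).

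Of 7 genes of the axonal Kv1 potassium channel complex, 1 rose and 1 fell, with a median log2 fold change of 0.36. *Kcna2*, which encodes the channel subunit Kv1.2 and had the highest CPM of the list, fell from 465.2 and 626.4 CPM in ctrl to 348.6, 341.6 and 333.6 CPM in cko (-0.68, SE 0.12, adjusted p = 0.012). *Kcna4*, encoding Kv1.4, rose from 1.61 and 1.17 to 5.93, 4.24 and 2.98 CPM (1.63, SE 0.36, adjusted p = 0.024).

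The 14-3-3 proteins bind the cytoplasmic tail of ADAM22, and of their 7 genes 2 rose and 0 fell, 0 also at an unadjusted p under 0.05 and by DESeq2. *Ywhah* rose from 133.3 and 148.8 CPM to 165.6, 186.7 and 183.6 CPM (0.34, SE 0.09, adjusted p = 0.040) and *Ywhaq* from 272.3 and 288.6 to 344.3, 369.1 and 326.6 CPM (0.31, SE 0.08, adjusted p = 0.046). *Ywhae* had the highest CPM of the list and differed by 0.14 in log2 (adjusted p = 0.28). Of 5 further binding partners, 2 fell and 0 rose, with 1 higher at an unadjusted p under 0.05 and 0 by DESeq2. *Itgav*, the integrin alpha v chain, fell from 240.1 and 304.5 to 198.9, 175.1 and 169.0 CPM (-0.59, SE 0.12, adjusted p = 0.018). *Flot1*, a membrane scaffold, fell from 87.77 and 71.36 to 63.89, 51.34 and 52.88 CPM (-0.51, SE 0.13, adjusted p = 0.036). *Prnp*, the prion protein gene and the one with the highest CPM of these, differed by 0.04 in log2 (adjusted p = 0.72).

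**Figure D4:**
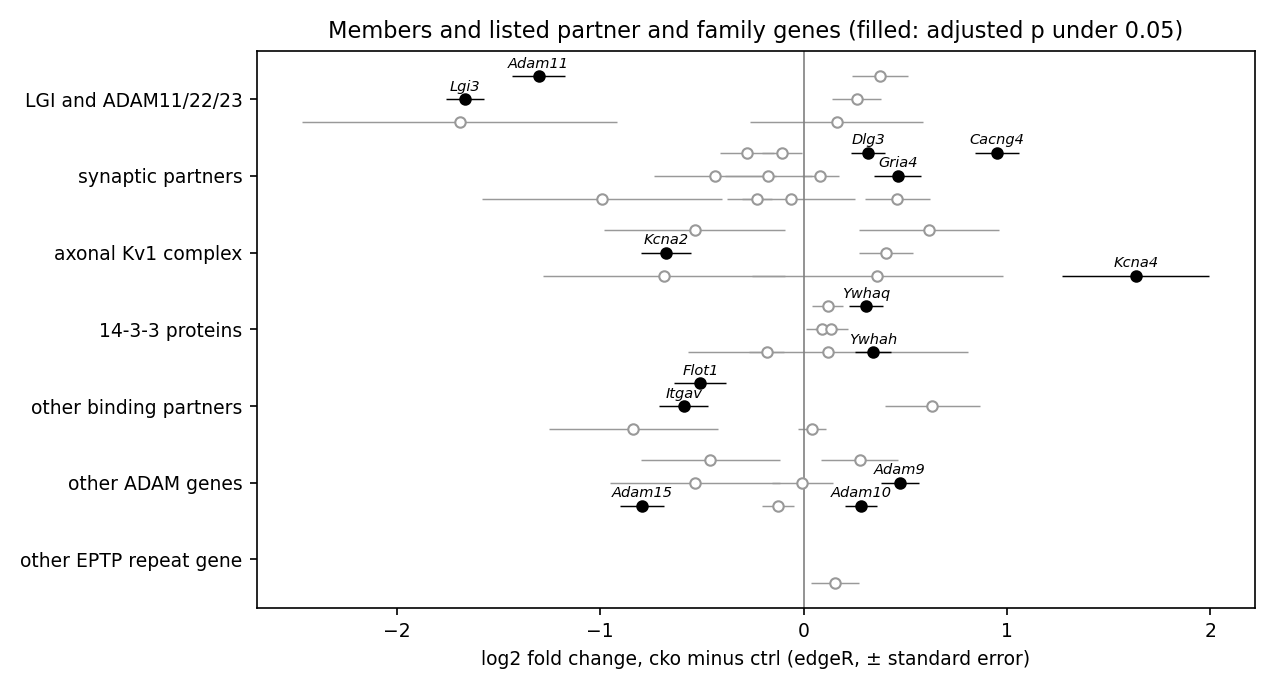
Log2 fold change of cko over ctrl with bars of 1 SE for the ligand and receptor genes and for the tested genes of each partner and family list; filled points have an adjusted p under 0.05 in the edgeR test over all genes. Filled points lie on both sides of 0, with *Lgi3* and *Adam11* among the lowest and *Kcna4* at 1.63 the highest.

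Other members of both protein families were counted last. Of 8 tested ADAM genes outside the receptor group, 2 rose and 1 fell, with a median log2 fold change of -0.07. *Adam9*, an active protease and the one with the highest CPM, rose from 232.2 and 269.2 CPM in ctrl to 325.4, 353.0 and 366.0 CPM in cko (0.47, SE 0.10, adjusted p = 0.018). *Adam10*, the sheddase that cleaves Notch receptors, rose from 165.3 and 146.4 to 189.4, 190.1 and 189.7 CPM (0.28, SE 0.08, adjusted p = 0.049). *Adam15*, also a protease, fell from 56.80 and 71.52 to 36.39, 37.56 and 36.91 CPM (-0.79, SE 0.11, adjusted p = 0.0047), the same side as *Adam11*. *Adam17*, the other main sheddase, differed by -0.12 in log2 (adjusted p = 0.32). *Adgrv1*, an adhesion receptor that shares the EPTP repeat with the ligands, was at 42.75 and 47.21 CPM in ctrl and 44.92 to 57.18 CPM in cko (0.15, adjusted p = 0.41). Of the 12 partner and family genes named as changed, *Cacng4* and *Adam15* passed the threshold in all 11 alternatives, and the call of each of the other 10 was lost in at least 1. Without cko 2 only these 2 passed, with adjusted p from 0.0704 to 0.212 for those lost. Without cko 3 only these and *Kcna4* did, with adjusted p from 0.0713 to 0.18 for the rest. With the replicate block *Dlg3*, *Ywhah*, *Ywhaq* and *Adam10* were lost, at edgeR adjusted p from 0.114 to 0.208. *Ywhaq* and *Adam10* were also lost with median-of-ratios size factors, at 0.0503 to 0.0507.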

How the data were processed

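RNA from cultured E14.5 NSCs (3 cko and 3 ctrl samples) was sequenced after SMARTER library preparation. Per the study's methods, the authors filtered reads with NGSQC and aligned them with HISAT2 to mm10, while their processing notes name GRCm39. The deposited values are whole-number counts per gene, and the counting tool, annotation and strand setting are not given in the sources used here. Of the 32493 Ensembl identifiers, 31836 were matched to GENCODE release 21 on GRCm38, which gave symbols, positions and lengths.

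Groups followed the labels. The ctrl 2 column was left out as the rounded-up mean of ctrl 1 and ctrl 3. Counts were normalized by TMM, filtered with filterByExpr and compared between cko and ctrl with the quasi-likelihood test of edgeR 4.0.16 in R 4.3.3, with Benjamini-Hochberg adjustment over all genes tested. The fit was tested on simulated data first. DESeq2 1.42.0, size factors, no filter, a filter of 10 counts, a replicate block, all 6 columns and leaving out each replicate were the alternatives. Profile distances used a pseudocount of 0.5 CPM and genes with a mean of 1 CPM or more. Library totals set the precision, and floors and intervals cover counting error only.

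The members and gene lists were chosen with earlier results of these data known. Named were all members, every listed gene with an adjusted p under 0.05, the gene with the highest CPM of each list, and the 3 nearest profiles of each tested member. Neighbouring genes, single markers, *Dlg4* and *Adam17* were named after their values were seen. Protein features and miRNA seed matches were not analysed here, and the values of some single genes are not reported here. Figures were drawn with matplotlib 3.10.9.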

Additional observations from a re-analysis of the deposited data

How the results depend on the processing

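With only 2 usable ctrl libraries, leaving 1 out gives a lone sample that is assumed to vary like the others. The log2 fold change of *Lgi2* turned to -0.42 without ctrl replicate 1 and ranged from -0.42 to 1.11 over the left-out replicates, and the cause was not tested. The ligand and receptor genes higher in cko numbered 0, with 0 to 1 over the left-out replicates (*Adam22* without ctrl 1, *Lgi2* without ctrl 3) and 1 with all 6 columns (*Adam23*), which count the averaged ctrl 2 column as data. Those lower numbered 2, with 2 to 3 over the left-out replicates and 3 with no filter, where, as without ctrl 3, *Lgi4* was added. Over all genes, 1314 were higher and 1432 lower. Leaving out a replicate gave 317 to 1812 and 416 to 2062, all 6 columns gave 2865 and 2794, no filter gave 2237 lower, and the study's threshold gave 399 and 696. Of the partner and family genes, 8 rose and 4 fell. Leaving out a replicate gave 1 to 10 and 1 to 9, no filter gave 8 lower, and the study's threshold gave 2 and 0.

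Replicates 1 and 3 carry a number in both genotypes, but only 2 such pairs exist and their deviations correlated at r = 0.137 over 16710 genes, and no source ties a number to a litter, so the numbers were not taken to pair the samples. With the replicate number as a block, 918 genes were higher and 1065 lower, 2 members were lower, and 5 partner and family genes rose while 4 fell. Depth limits *Lgi1*, which had at most 4 counts in a library, and *Lgi4*, which had 6 to 56.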

Other observations

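The genes next to the members, looked at after the values of the members were known, did not all share their differences. On the 2 sides of *Lgi3*, the protease gene *Bmp1* lay 10450 bases away with a log2 fold change of -0.23 (edgeR adjusted p = 0.18), and *Reep4* lay 6926 bases away with 0.16 (adjusted p = 0.48). Beside *Adam11*, *Ccdc43* had 0.16 (adjusted p = 0.31) and the gap junction gene *Gjc1* 0.45 (adjusted p = 0.16). Next to *Lgi4*, *Fxyd1* had -2.77 (SE 0.96, adjusted p = 0.093) at a gap of 2142 bases. Beside *Adam22*, *Dbf4*, which encodes an activator of DNA replication, rose from a mean of 34.69 CPM to 63.63 CPM with a log2 fold change of 0.88 (SE 0.10, adjusted p = 0.003), while *Sri* on the other side had 0.01 (adjusted p = 0.97).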
